A study of Mus musculus with 15 samples.

Results

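AtT-20 is a cell line from a mouse anterior pituitary tumour that keeps the traits of corticotrophs, the cells that make adrenocorticotropic hormone (ACTH). The response of these cells to 2 h of dexamethasone, a synthetic glucocorticoid, rests on 4 of the 15 arrays of the study: 2 arrays of AtT-20 at 0 h and 2 arrays at 2 h, chosen by the line and time in their titles. Each 2 h array was paired with the 0 h array of the same run, the run being read from the serial numbers in the titles, of which the lower ones form run 1 and the higher ones run 2. The study measured AtT-20 and 3134 cells at 0, 2, 4 and 8 h on Affymetrix mouse exon arrays. AtT-20 came from the LAF1 strain and 3134 is a mammary line made by transforming C127 cells of the RIII strain, both labelled male. All cultures, controls included, were moved to medium with charcoal-stripped serum for 48 h, and treated cells then received 100 nM dexamethasone. The 0 h cells are called untreated in one label and vehicle treated in another, and no vehicle array at 2 h was used here. The labels do not say that the arrays of a group came from separate cultures, and the p-values below speak only of the scatter seen among the arrays, possibly a technical one.

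Glucocorticoids enter the cell and bind the glucocorticoid receptor, encoded by Nr3c1, which is held by heat shock chaperones until then. The receptor moves to the nucleus and binds response elements, palindromes in which a pair of AGAACA-like arms face each other across a short spacer, or meets other factors on DNA. In corticotrophs this is the receptor of negative feedback: cortisol or corticosterone lowers ACTH release and transcription of Pomc, the gene of the ACTH precursor, against the drive of corticotropin-releasing hormone. In many cell types the early induced genes include Per1, Sgk1, Fkbp5 and Tsc22d3.

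The AtT-20 arrays carried the markers of their label. All 6 corticotroph markers were above the level needed for testing at 0 h, which was log2 6.59, the 40th percentile of all probeset values. They ranged from 7.19 for Crhr1, the receptor of corticotropin-releasing hormone, to 13.23 for Pomc. Of the longer list of corticotroph identity genes 8 of the 23 with a value were below that level at 0 h, among them Pcsk2 at 6.55, Lhx4 at 6.39, Lhx3 at 5.65 and Rxrg at 4.32. Of the markers of other pituitary hormone cells 0 of 8 reached that level (3.23 to 6.13), nor did any of 5 immune markers (3.89 to 6.41) or 4 endothelial ones (4.25 to 5.29). On a longer list of other pituitary cells 12 of the 15 with a value were below it at 0 h. Sox9 at 8.59 and Gata2 at 7.31 were above. On a longer list of other cell types 20 of the 23 with a value were below it. The mesenchymal list had 1 of 5 at or above it, Col1a1 at 6.66, and the epithelial list had 2 of 5, Krt8 at 11.68 and Krt18 at 9.97. The summed level of the other pituitary markers was 36.1 at 0 h and 37.51 at 2 h, and that of the corticotroph markers 64.23 and 63.91. The deposited medians of the 7 AtT-20 arrays lay between 6.93 and 7.86 before quantile normalization, and each array correlated with its closest partner at 0.975 to 0.985. A total of 9919 genes were tested, by median over probesets, with run as a block.

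After 2 h of dexamethasone 28 genes were higher and 4 were lower in AtT-20 (limma, adjusted p under 0.05 by the Benjamini-Hochberg method), which is 0.282% and 0.0403% of the genes tested, or 0.323% together. The rises spanned 0.70 to 2.70 on the log2 scale with a median of 1.33, and 22 of the 28 exceeded 1. In bulk RNA a change per cell and a change in the share of cells cannot be told apart. The rises were led by Arhgef3, Mdm1, Rasd1, Cables1, Sgk1 and Sesn1. The 4 falls were Thbs1, Enc1, Ccr7 and Cfap299. In each of the 32 genes both 2 h arrays lay beyond both 0 h arrays on the same side. That held for 22% of all tested genes, so it did not single out the genes that passed. An unadjusted p under 0.05 was reached by 644 genes, or 6.49%. The median log2 fold change of all genes was 0.003, and the differences of the 2 runs correlated at 0.141 across genes, which are not independent replicates.

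**Figure D1:**
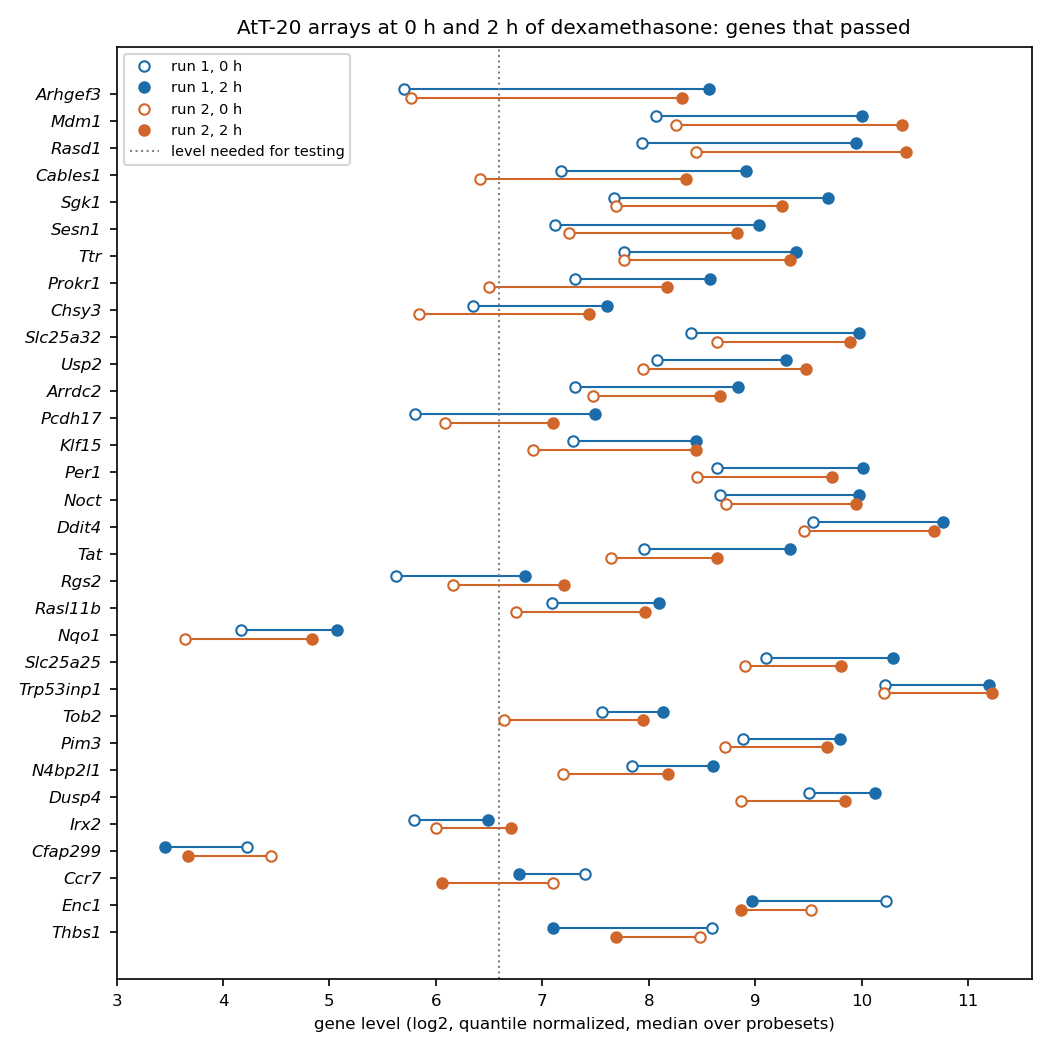
Level of each of the 32 genes that passed, on the log2 scale after quantile normalization, in the 4 AtT-20 arrays. Open circles are 0 h and filled circles 2 h, blue is run 1 and orange run 2, lines join the arrays of a run, and the dotted line is the level needed for testing; filled circles lie to the right of open ones for the 28 genes that rose and to the left for the 4 that fell.

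**Figure D2:**
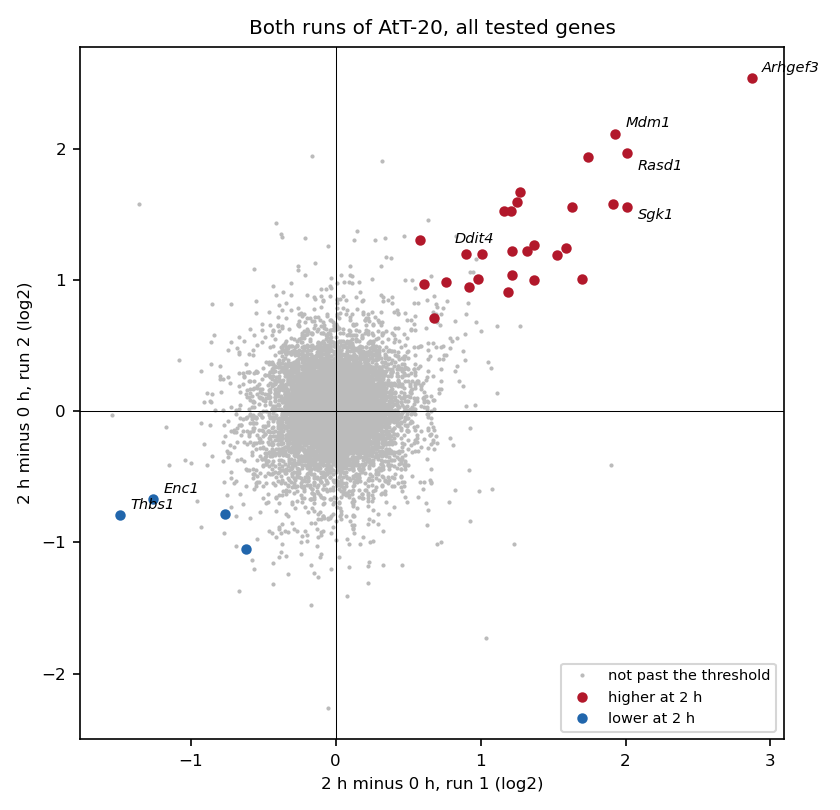
Log2 difference of 2 h minus 0 h in run 1 (horizontal) against run 2 (vertical) for the 9919 tested genes. Genes that passed are red where higher and blue where lower; most grey points lie around 0, and 19 genes exceed 1 in both runs.

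The count rested on few arrays. Fitted without run as a block, 9 genes were higher and none was lower: Arhgef3, Mdm1, Sgk1, Sesn1, Usp2, Arrdc2, Pcdh17, Per1 and Ddit4. Leaving out the 2 h array of run 2 gave 14 genes, leaving out the 2 h array of run 1 gave 18, leaving out the 0 h array of run 2 gave 21 and leaving out the 0 h array of run 1 gave 30, of which 15 were among the 32. With all 4 omissions Arhgef3, Mdm1, Rasd1, Cables1, Sgk1, Sesn1, Prokr1, Usp2 and Per1 passed each time. Others missed the threshold in each of the 4 omissions. Among the rises these were Chsy3, Klf15, Noct, Rasl11b, Trp53inp1, Pim3, N4bp2l1, Dusp4 and Irx2. Among the falls they were Ccr7, Enc1 and Cfap299. A mean over probesets in place of the median gave 55 higher and 15 lower genes, 28 of the 32 among them, and no filter on low values gave 20 higher and none lower.

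Sgk1 encodes the serum- and glucocorticoid-regulated kinase, which acts on ion channels and transporters. It read 7.67 and 7.69 at 0 h in runs 1 and 2, and 9.68 and 9.26 at 2 h. The groups did not overlap, as in 22% of all tested genes. The rise was 3.45-fold (log2 1.79 ± 0.18 SE, limma adjusted p = 0.000411). Its promoter window is shown because it held the one response element match found among the genes that rose. RefSeq promoter windows of build GRCm38.p6, 250 bases before to 50 bases after a start, were at hand for 21 of the 32 genes, all of them genes that rose, in 33 windows. They were searched for a glucocorticoid response element in a loose form, GNACA, any 3 bases, then TGTNC, and in a strict form, AGAACA, any 3 bases, then TGTTCT, which holds the former inside it. Each reads the same on both strands. The loose form stood in 1 of the 33 windows, against 156 of 32851 windows overall (0.475%) and 33 of 10442 windows of tested genes (0.316%). The strict form stood in 3 of the 32851 windows (0.00913%). Among the genes that rose, the single window with either form belonged to Sgk1. That window, 1 of 6 for the gene, is printed with the match in capitals, beside the window of Mdm1, the second largest rise, which held none. The match begins at position -188 from the Sgk1 start. A match is a description of letters and not a measured binding site, and a window without one says nothing of elements elsewhere.
Sgk1, chr10:21993640-21993939, plus strand: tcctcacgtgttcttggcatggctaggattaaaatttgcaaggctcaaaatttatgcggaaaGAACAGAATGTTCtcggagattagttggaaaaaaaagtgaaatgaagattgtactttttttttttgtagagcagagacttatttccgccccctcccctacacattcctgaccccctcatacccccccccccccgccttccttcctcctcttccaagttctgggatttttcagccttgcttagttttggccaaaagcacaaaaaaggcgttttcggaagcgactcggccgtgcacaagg
Mdm1, chr10:118141537-118141836, plus strand: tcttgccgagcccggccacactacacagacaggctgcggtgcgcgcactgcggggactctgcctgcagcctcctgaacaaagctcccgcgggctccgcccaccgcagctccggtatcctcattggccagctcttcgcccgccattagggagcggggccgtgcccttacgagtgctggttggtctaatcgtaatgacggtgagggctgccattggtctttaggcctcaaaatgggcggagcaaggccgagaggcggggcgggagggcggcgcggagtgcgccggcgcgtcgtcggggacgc

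Several rises were genes of small G proteins or of G protein and MAP kinase signalling, at different sizes. Arhgef3, a guanine nucleotide exchange factor, went from 5.70 and 5.77 at 0 h to 8.57 and 8.31 at 2 h. Both 0 h values lay below the level needed for testing, and both 2 h values well above it. The difference was 6.52-fold (log2 2.70 ± 0.17 SE, adjusted p = 1.17e-05). Rasd1 encodes a Ras-like protein first described as dexamethasone-induced in AtT-20 cells. It read 7.93 and 8.45 at 0 h and 9.95 and 10.42 at 2 h. The groups did not overlap, as in 22% of all tested genes. The rise was 3.98-fold (log2 1.99 ± 0.14 SE, limma adjusted p = 2.12e-05). Rgs2, which speeds GTP hydrolysis by the alpha subunits of Gq, went from 5.62 and 6.16 to 6.84 and 7.20 (2.18-fold, log2 1.13 ± 0.15 SE, adjusted p = 0.00382). Its 0 h mean lay below the level needed for testing. Dusp4, a phosphatase that turns off MAP kinases, went from 9.51 and 8.87 to 10.12 and 9.84 (1.73-fold, log2 0.79 ± 0.15 SE, adjusted p = 0.0464). Its 0 h array of run 1 lay closer to the 2 h arrays than to the other 0 h array, and it passed in none of the fits that left an array out. Of 27 tested MAP kinase and G protein feedback regulators Rasd1, Rgs2 and Dusp4 rose and none fell, with a median of 0.009. Of all tested genes 0.282% rose (limma). Rasl11b, another Ras-like gene, went from 7.09 and 6.76 to 8.10 and 7.96 (2.15-fold, adjusted p = 0.0168).

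Mdm1 encodes a protein that binds microtubules of the centriole. It read 8.07 and 8.26 at 0 h and 10.00 and 10.38 at 2 h, far apart in both runs, a 4.07-fold rise (log2 2.03 ± 0.12 SE, adjusted p = 1.17e-05). Cables1, which binds cyclin-dependent kinases, went from 7.17 and 6.41 to 8.91 and 8.35, 3.58-fold (log2 1.84 ± 0.18 SE, adjusted p = 0.000411). Run 2 was lower than run 1 at both times and the change was alike in both, and without run as a block the adjusted p was 0.137. Cables1 was the one of 38 cell cycle genes to pass, and the list's median was 0.03. Tob2, a member of the antiproliferative BTG/TOB family, went from 7.56 and 6.64 to 8.14 and 7.95 (1.92-fold, adjusted p = 0.0438).

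Restraints of the growth kinase mTOR and genes known as p53 targets were among the rises. Sesn1, a sestrin that restrains mTORC1, went from 7.12 and 7.25 to 9.03 and 8.83, 3.36-fold (log2 1.75 ± 0.15 SE, adjusted p = 0.000112). Ddit4, also called REDD1, which acts on the same complex, went from 9.55 and 9.46 to 10.77 and 10.68, 2.33-fold (log2 1.22 ± 0.14 SE, adjusted p = 0.00135). Klf15, a Krüppel-like factor of fasting metabolism, went from 7.29 and 6.91 to 8.45 and 8.44, 2.54-fold (log2 1.34 ± 0.22 SE, adjusted p = 0.0244). These were the 3 of 31 tested mTOR and growth control genes that rose, with none lower and a median of -0.01. Of 25 p53 targets 3 rose, Sesn1, Ddit4 and Trp53inp1, with none lower and a median of 0.10. The counts of both lists stand against 0.282% of all tested genes that rose (limma). Trp53inp1, a stress protein that works with p53 and in autophagy, was already at 10.22 and 10.21 and reached 11.20 and 11.22 (1.99-fold, adjusted p = 0.0158). All 4 of these genes also stand on the list of glucocorticoid-induced genes, so the lists do not speak separately.

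Clock-related genes contributed 2 rises among 20 tested, against 0.282% of all tested genes, with a list median of -0.02. Per1, the period gene that glucocorticoids induce directly in many cells, went from 8.64 and 8.45 to 10.01 and 9.72, 2.50-fold (log2 1.32 ± 0.13 SE, adjusted p = 0.000411). Usp2, a deubiquitinase with a daily rhythm, went from 8.08 and 7.94 to 9.29 and 9.47, 2.58-fold (log2 1.37 ± 0.14 SE, adjusted p = 0.000411). Cry2 differed by 0.70 with an adjusted p of 0.149. Noct, or nocturnin, a rhythmic NADP(H) phosphatase, stood on none of the lists; it went from 8.67 and 8.73 to 9.98 and 9.95, 2.41-fold (log2 1.27 ± 0.17 SE, adjusted p = 0.00382).

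Further rises came from genes of other roles. Ttr, transthyretin, a carrier of thyroxine and of retinol-binding protein, went from 7.76 and 7.77 to 9.39 and 9.33, 3.02-fold (log2 1.59 ± 0.19 SE, adjusted p = 0.00148). Prokr1, a receptor for prokineticins, went from 7.31 and 6.50 to 8.58 and 8.17, 2.77-fold (log2 1.47 ± 0.15 SE, adjusted p = 0.000511). The 0 h arrays of Prokr1 differed between runs by more than the 2 h arrays did. Pcdh17, a protocadherin, went from 5.80 and 6.09 to 7.50 and 7.10, 2.56-fold (log2 1.35 ± 0.18 SE, adjusted p = 0.00382). Arrdc2, an alpha-arrestin, went from 7.31 and 7.48 to 8.84 and 8.67, 2.57-fold (log2 1.36 ± 0.16 SE, adjusted p = 0.00145). Chsy3, a chondroitin sulphate synthase, rose 2.69-fold from a mean of 6.10 at 0 h (log2 1.43 ± 0.25 SE, adjusted p = 0.0409).

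Of the mitochondrial carriers, Slc25a32, which brings folate into the organelle, rose 2.67-fold (log2 1.42 ± 0.19 SE, adjusted p = 0.00387), and Slc25a25, which exchanges ATP-Mg for phosphate, rose 2.07-fold (log2 1.05 ± 0.13 SE, adjusted p = 0.00218). Slc25a25 was the one of 26 transporters on the list to pass. Tat, tyrosine aminotransferase, the classical glucocorticoid-induced liver enzyme, went from 7.96 and 7.64 to 9.33 and 8.64, 2.27-fold (log2 1.19 ± 0.14 SE, adjusted p = 0.00145). Its groups did not overlap, as in 22% of all tested genes. Its level was still higher at 4 h (9.75 and 9.31) and in the 1 array at 8 h (10.16). Nqo1, a quinone reductase, rose 2.07-fold (adjusted p = 0.00482), but at 4.17 and 3.64 at 0 h and 5.07 and 4.84 at 2 h it stayed below the level needed for testing throughout. It entered the test through its level in other groups, 7.73 in 3134 at 0 h among them. It was the one of 17 NRF2 targets to pass. Pim3, a serine/threonine kinase, rose 1.91-fold (limma, adjusted p = 0.0244), and N4bp2l1 rose 1.84-fold (adjusted p = 0.0421). The homeobox gene Irx2 rose 1.62-fold (adjusted p = 0.0421). Its 0 h mean of 5.90 lay below the level needed for testing. Its 2 h arrays, at 6.485 and 6.708, lay on either side of that level. In 3134 at 0 h Irx2 stood at 10.01. Tat, Rasl11b, Tob2, Pim3, N4bp2l1 and Irx2 are named because they completed the set of 32, after their values were seen.

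Among the 4 falls Thbs1, thrombospondin, a matrix protein that activates latent TGF-beta, moved most. It read 8.60 and 8.49 at 0 h and 7.10 and 7.70 at 2 h (-1.50 in run 1 and -0.79 in run 2), and fell 2.21-fold (log2 -1.14 ± 0.17 SE, adjusted p = 0.0106). Without run as a block its adjusted p was 0.0613. It was the one of 32 tested matrix and TGF-beta genes to fall, and none rose. Enc1, a kelch protein that binds actin, went from 10.23 and 9.53 to 8.97 and 8.86, 1.95-fold lower (adjusted p = 0.0465). Ccr7, a chemokine receptor of lymphocytes, went from 7.40 and 7.10 to 6.78 and 6.06, 1.78-fold lower (adjusted p = 0.0464). Cfap299, named for cilia and flagella, was 1.71-fold lower (adjusted p = 0.0244) with levels of 4.22 and 4.45 at 0 h and 3.46 and 3.67 at 2 h, all under the testing level. Enc1, Ccr7 and Cfap299 lay near the threshold or at low level, and each missed it in every fit that left an array out.

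The genes by which glucocorticoid action is usually read responded unevenly. Of 45 tested genes on the list of glucocorticoid-induced genes 11 rose and none fell, against 0.282% and 0.0403% of all tested genes. An unadjusted p under 0.05 was reached by 25, against 6.49% of all tested genes (limma). The list's median was 0.39, against 0.003 for all genes, and 30 of the 45 were higher in both runs, against 26.1% of all genes. The list was chosen with earlier results of these data known, and it was not tested as a set. Of the 48 members with a value 13 lay under the testing level at 0 h. Fkbp5, a receptor co-chaperone that dampens hormone binding, went from 9.76 and 9.59 to 10.33 and 10.41. Its groups did not overlap, as in 22% of all tested genes. With log2 0.70 ± 0.14 SE it missed the threshold (limma, adjusted p = 0.0733), and it passed in 3 of the alternative fits. Tsc22d3, or GILZ, a mediator of anti-inflammatory action, differed by 0.77 ± 0.20 (adjusted p = 0.229). Dusp1, the MAP kinase phosphatase most tied to glucocorticoids, differed by 0.42 ± 0.17 (adjusted p = 0.665). Mt2, a metallothionein at 10.13, differed by 0.37 (adjusted p = 0.817). Pdk4, which blocks pyruvate oxidation, was at 4.41 at 0 h and differed by -0.44 (adjusted p = 0.425).

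The corticotroph genes gave no call. Pomc read 13.48 and 12.98 at 0 h and 13.50 and 13.12 at 2 h. The runs stood further apart than the times, the difference was 0.08 ± 0.20 SE (adjusted p = 1.00), and its 95% interval ran from -0.36 to 0.52. The sign of this difference changed with the settings, from -0.26 to 0.18. Crhr1 differed by 0.09 (95% interval -0.42 to 0.61) and Tbx19, the T-box factor that drives Pomc, by -0.002 (-0.47 to 0.46). Nr4a1, the orphan receptor through which corticotropin-releasing hormone acts on Pomc, read 8.46 and 8.61 at 0 h and 8.13 and 7.69 at 2 h. Both 2 h arrays were below both 0 h arrays, as in 1055 of the 9919 tested genes. The difference was -0.62 ± 0.18 SE with an unadjusted 95% interval of -1.02 to -0.23 (limma, adjusted p = 0.361). None of 16 tested identity genes rose or fell, and the median was 0.008. An unadjusted p under 0.05 was reached by 1 of them, against 6.49% of all tested genes (limma).

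The hormone receptor and the surrounding machinery were no different in calls. Nr3c1 differed by -0.25 ± 0.14 (adjusted p = 0.924, 95% interval -0.55 to 0.06). With its chaperones and cofactors it formed a list of 21 tested genes with no call and 1 gene, Fkbp5, at an unadjusted p under 0.05. Over all tested genes 6.49% reached such a p (limma). None of 26 genes of corticotropin-releasing hormone, calcium and cAMP signalling passed, with 2 at an unadjusted p under 0.05. None of 28 secretory granule and exocytosis genes passed, with 3 at an unadjusted p under 0.05, of which the largest was Syt4, a vesicle synaptotagmin (0.75, adjusted p = 0.425). In the list of potassium and sodium channels with the Sgk pathway Sgk1 was the one of 18 tested genes to pass. None of 29 immediate early genes passed, with 8 at an unadjusted p under 0.05. They ran from -0.63 for Klf2 (adjusted p = 0.201) to 0.74 for Myc (adjusted p = 0.0911), in both directions around a median of -0.01.

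The inflammatory, stress and lipid lists held almost no calls in AtT-20. None of 23 cytokine, chemokine and NF-kB genes passed, with 7 at an unadjusted p under 0.05, against 6.49% of all tested genes (limma). Cish, a feedback inhibitor of cytokine receptors, differed by 1.00 (adjusted p = 0.263) and Ccl3 by 0.82 (adjusted p = 0.129). Of the 38 members with a value, tested or not, 22 lay under the testing level at 0 h. None of 27 lipid genes passed, with 4 at an unadjusted p under 0.05, and none of 25 heat shock and unfolded protein genes, with 1. Among 25 apoptosis regulators Trp53inp1 was the one to rise. The 23 cholesterol synthesis genes, with a median of 0.06, and the 21 housekeeping genes, with a median of 0.02, had none even at an unadjusted p under 0.05. Markers of other pituitary cells had 4 tested genes and those of other cell types 9, with no call and 0 and 1 gene at an unadjusted p under 0.05.

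Exon arrays carry several probesets in a gene, so each change was also read probeset by probeset. Of 135905 probesets in tested genes 120 were higher (0.0883%) and 13 lower (0.00957%), in 46 genes. In Mdm1 all 18 probesets above the level were higher in both runs and 15 passed, from 0.47 to 2.84. All 4 probesets of Rasd1 passed, and 31 of 32 of Per1 were higher in both runs, with 20 past the threshold. Over all probesets 24.8% were higher in both runs. Tat had 14 of 14 higher in both runs, none past the threshold on its own. Thbs1 had 24 of 27 lower in both runs, from -1.33 to -0.32, and Fkbp5 had 13 of 14 higher in both runs, from 0.40 to 0.88, again with none past the threshold.

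In other genes the median over the probesets was smaller than the change of the gene value. In Cfap299 the 5 probesets above the level had a median of -0.03, with 1 lower and 1 higher in both runs, against -0.77 for the gene. In Irx2 5 of 11 were higher in both runs and 1 lower, with a median of 0.17 against 0.70. The 3 probesets of Ccr7 had a median of -0.22 against -0.83, and the 3 of Tob2 one of 0.33 against 0.94. None of the probesets of these 4 genes passed, so their folds rest on the median over probesets taken in each array.

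In some genes the probesets did not move alike. A test of unequal change (limma diffSplice, Simes adjustment within the gene) passed for Sgk1 (adjusted p = 2.01e-08), where 16 of 18 probesets were higher in both runs and the others lay at 0.02 and -0.36. In Arhgef3 12 of 13 were higher in both runs and 1 stood at -0.30 while the highest reached 3.48 (adjusted p = 3.2e-07). In Klf15 3 probesets lay up to 2.55 and the fourth at -0.17 (adjusted p = 0.000218), and Pcdh17 ranged from -0.12 to 2.30 (adjusted p = 7.53e-05). The gene value is the median of probeset levels in each array, so such a probeset can still enter it. The gene value of Klf15 moved by 1.34 against a median of 1.98 over its probeset changes. For Sgk1 these were 1.79 and 2.25. The test passed for 414 genes (4.17%), of which 385 held no probeset that passed by itself. Of the 32 genes that passed at 2 h it passed for 12. Mdm1 (diffSplice, adjusted p = 0.00578) and Per1 (adjusted p = 0.00253) were among them. Their probesets differed in size, from 0.47 to 2.84 in Mdm1 and from 0.2 to 2.18 in Per1. Without run as a block the test passed for 43 genes, and on the deposited scale for 87. Which exons the probesets lie in was not used here.

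**Figure D3:**
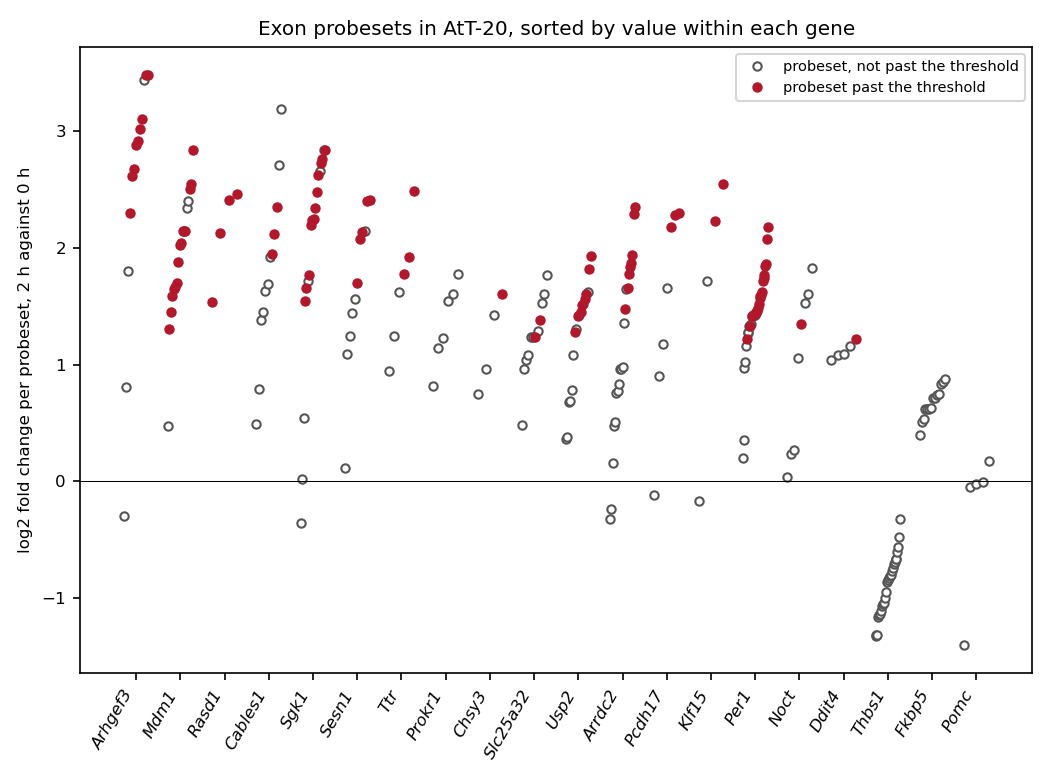
Log2 fold change at 2 h of each probeset above the level, sorted within the gene, for the largest rises and for Thbs1, Fkbp5 and Pomc. Filled red points passed the threshold over all 135905 probesets. All plotted probesets of Mdm1, Usp2 and Per1 lie above 0, and single ones of Sgk1, Arhgef3 and Klf15 lie at or below it. The lowest of Arrdc2 and Pcdh17 lie at -0.32 and -0.12, and 4 of 5 of Pomc lie near 0 with 1 at -1.40.

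The 2 h state was then set against 4 h, which shares the 2 h arrays. Only 2 genes differed between 4 h and 2 h, both higher at 4 h (0.0202%; none lower, and 500 genes at an unadjusted p under 0.05, limma). Leaving out any of the 4 arrays, or the block, left none. Sqor, the mitochondrial sulphide quinone oxidoreductase, read 5.62 and 4.50 at 2 h and 7.04 and 5.91 at 4 h (log2 1.42 ± 0.17 SE, adjusted p = 0.0286). Its 0 h and 2 h arrays and the run 2 array at 4 h lay below the level needed for testing. Sqor entered the test through its level in other groups, 7.69 in 3134 at 0 h among them. Tm4sf1, a tetraspan membrane protein, read 7.79 and 8.13 at 2 h and 8.77 and 8.97 at 4 h (log2 0.91 ± 0.13 SE, adjusted p = 0.0448). Among the 32 genes the difference of 4 h from 2 h ran from -0.65 for Thbs1 to 0.96 for Ttr, with none past the threshold. Mdm1 stood at 10.77 and 11.11 at 4 h, 0.75 above 2 h (unadjusted 95% interval 0.48 to 1.02, adjusted p = 0.104). Ttr stood at 10.51 and 10.13 at 4 h and at 10.96 in the 1 array at 8 h. Arhgef3 stood at 8.88 and 8.42 at 4 h, 0.21 above 2 h with an interval of -0.17 to 0.59. Rasl11b stood at 7.58 and 7.47 at 4 h and 7.09 at 8 h, its level at 0 h in the same run. Thbs1 went on to 6.81 and 6.68 at 4 h and 6.41 at 8 h.

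**Figure D4:**
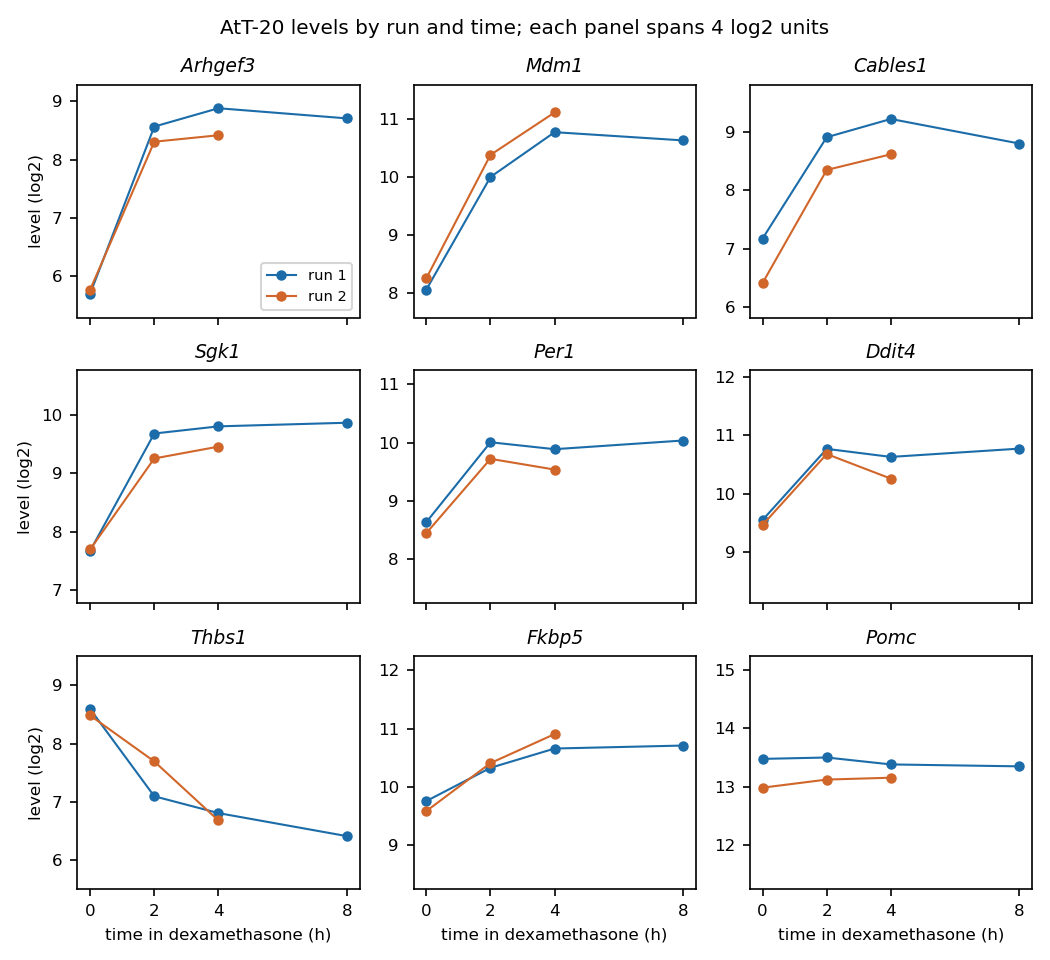
Log2 level of 9 genes in AtT-20 against hours in dexamethasone, with run 1 in blue (0, 2, 4 and 8 h) and run 2 in orange (0, 2 and 4 h). Each panel spans the same height of 4 log2 units; the step between 0 and 2 h is the main one for Arhgef3, Sgk1, Per1 and Ddit4, Mdm1 and Thbs1 go on to 4 h, and Pomc stays near 13.

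In 3134 cells the same 2 h treatment raised 194 genes and lowered 104, 1.96% and 1.05% of those tested. The genes higher in both lines were Arrdc2, Ddit4, Klf15, Per1, Rgs2, Sesn1, Sgk1, Tob2, Trp53inp1 and Usp2, which are 10 of the 28 in AtT-20 (35.7%) and 5.15% of the 194 in 3134. Thbs1 was lower in both, 25% of the 4 falls and 0.962% of the 104. Dusp4 went opposite ways, higher in AtT-20 and lower in 3134 by -1.64 (adjusted p = 2.76e-05).

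The difference of the responses was tested as an interaction in the same fit. It passed for 151 genes (1.52%), of which 46 were higher in AtT-20 (0.464%) and 105 lower (1.06%). Leaving out 1 array of either line gave 73 to 111 genes, and without run as a block 26 remained. The AtT-20 arrays that chose the 32 genes also enter this difference. For Dusp4 it was 2.44 ± 0.21 SE (adjusted p = 7.63e-05), for Arhgef3 2.06 ± 0.25 (adjusted p = 0.000943), for Mdm1 1.94 ± 0.17 (adjusted p = 0.000115) and for Noct 1.84 (adjusted p = 0.0017). In 3134 Arhgef3 differed by 0.65 (adjusted p = 0.0812) from 7.29 and 6.90, a higher base than in AtT-20, and Mdm1 by 0.09 from a base of 7.87 and 7.72, near that of AtT-20.

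For other genes 3134 offered little to compare. Of the 28 genes 8 were below the level needed for testing in 3134 at both times, namely Rasd1, Cables1, Ttr, Prokr1, Chsy3, Tat, Rasl11b and N4bp2l1. Cables1 was at 4.36 in 3134 at both times and differed between lines by 1.84 (adjusted p = 0.0025). Ttr was at 4.33 and 4.58 there, and Tat at 4.63 and 4.75. Their change in 3134 was thus read near background. Pcdh17, Slc25a32 and Slc25a25 were measurable in 3134, with changes of 0.05, -0.05 and 0.18, and the interaction passed for each: 1.30 for Pcdh17 (adjusted p = 0.0219), 1.47 for Slc25a32 (adjusted p = 0.0148) and 0.87 for Slc25a25 (adjusted p = 0.0346).

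Several glucocorticoid-induced genes rose less in AtT-20 than in 3134. Rgs2 rose by 2.90 in 3134 and the difference was -1.77 (adjusted p = 0.000903). Arrdc2 rose by 2.75 there and the difference was -1.39 (adjusted p = 0.0078), and Per1 rose by 2.69 with a difference of -1.36 ± 0.19 (adjusted p = 0.00239). Among genes that did not pass in AtT-20, Fkbp5 differed by -1.96 (adjusted p = 0.000218), Tsc22d3 by -1.74 (adjusted p = 0.00759) and Dusp1 by -2.56 (adjusted p = 0.000192). Of the 45 listed glucocorticoid-induced genes 30 rose and none fell in 3134, against 1.96% and 1.05% of all tested genes. The list's median there was 1.19. The interaction passed for 22 of the 45, against 1.52% of all tested genes. It was higher in AtT-20 for Rasd1 and Tat and lower for 20. The list was chosen with earlier results of these data known. For Sesn1 the difference was -0.004 with a 95% interval of -0.45 to 0.44, and for Trp53inp1 -0.06 with an interval of -0.54 to 0.42. For Sgk1 it was -0.74 (-1.28 to -0.20, adjusted p = 0.286), for Ddit4 -0.84 (-1.27 to -0.41, adjusted p = 0.0616) and for Usp2 0.39 (-0.03 to 0.81). For Klf15 the interval was -0.52 to 0.85. These intervals are unadjusted and none of the 6 differences passed.

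**Figure D5:**
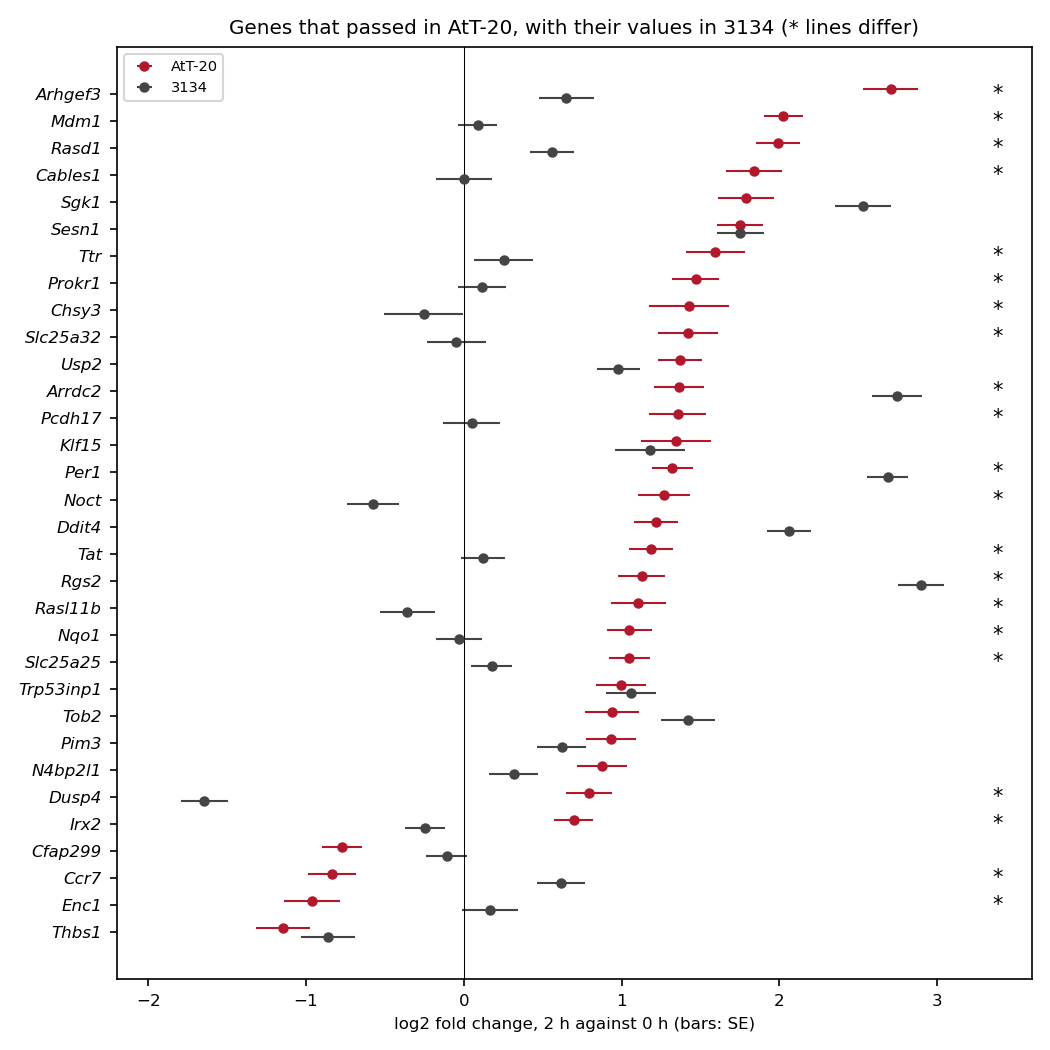
Log2 fold change at 2 h in AtT-20 (red) and in 3134 (grey) of the 32 genes that passed in AtT-20, with bars of 1 SE from the fit; the genes were chosen by the red values. A star marks genes whose interaction of line and treatment had an adjusted p under 0.05, as for Arhgef3, Mdm1 and Dusp4 with the higher value in AtT-20 and Rgs2, Arrdc2 and Per1 with the lower.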

How the data were processed

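RNA from AtT-20 and 3134 cells was measured on Affymetrix mouse exon arrays. Probeset values on the log2 scale are the authors' deposited ones, made with RMA in Affymetrix Expression Console per the submitters' processing notes; their versions are not stated. The 15 arrays in 8 groups were quantile normalized. Of 228090 probesets 207232 carry exactly 1 symbol in the platform annotation (3882 several, 16976 none), and current names were found for all but 41 of 16207 symbols. A gene value is the median over at least 3 such probesets (15025 genes, median of 13 probesets). Genes whose highest group mean reached the 40th percentile of all probeset values were tested (9919), so 1005 entered without reaching it in AtT-20 at 0 or 2 h.

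One limma fit over all arrays (limma 3.58.1, R 4.3.3) had the 8 groups and run within line as a block, with 2-sided tests and Benjamini-Hochberg adjustment at 0.05. The same-run pairs of AtT-20 arrays had deviations from group means that correlated at 0.557 to 0.591, over 6 pairs; with 2 arrays in a group the pairs mirror each other. The pairing comes from the serial numbers. Log2 fold changes carry the fit's SE, at a median of 0.153; there are 2 arrays a group, which limits the precision. Intervals are 95% and unadjusted. The scripts were tested on simulated data. Promoter windows are RefSeq's (GRCm38.p6); matching was by symbol. Figures used Python 3.11.15 with matplotlib 3.10.9.

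Members, gene lists and tests were chosen with earlier results of these data known. Named genes were the calls at 2 h (up to 16 rises and 10 falls), up to 3 genes of each list by smallest p, up to 5 genes each way for 4 h against 2 h and for the difference from 3134, and 10 genes set by name. Alternatives were no block, the deposited scale, median centring, the mean over probesets, other filters, an intensity trend, fewer arrays and each array left out.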

Additional observations from a re-analysis of the deposited data

Results flagged for a closer look

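The 2 h response differed between AtT-20 and 3134 for 151 genes by the interaction of line and treatment in the limma fit (adjusted p under 0.05), and 35 of the genes named here were among them. Values are the AtT-20 log2 fold change minus that of 3134.

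Among genes that passed in AtT-20 the difference was positive for Arhgef3 (2.06), Mdm1 (1.94), Rasd1 (1.43), Cables1 (1.84), Ttr (1.34), Prokr1 (1.35), Chsy3 (1.68), Slc25a32 (1.47), Pcdh17 (1.30), Noct (1.84), Dusp4 (2.44), Tat (1.06), Rasl11b (1.46), Slc25a25 (0.87), Irx2 (0.94) and Nqo1 (1.08). It was negative for Arrdc2 (-1.39), Per1 (-1.36), Rgs2 (-1.77), Enc1 (-1.13) and Ccr7 (-1.45).

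Among genes that did not pass in AtT-20 it was positive for Myc (1.25), Ccl2 (3.26), Cxcl5 (2.78), Cxcl3 (2.63) and Gas1 (2.24). It was negative for Fkbp5 (-1.96), Tsc22d3 (-1.74), Dusp1 (-2.56), Klf2 (-1.39), Pdk4 (-3.56), Orm1 (-4.36), Orm2 (-2.96), Mt2 (-3.21) and Lcn2 (-2.78).

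Of the 35 genes 9 were below the testing level in AtT-20 at both 0 and 2 h and entered the test through other groups: Nqo1, Myc, Ccl2, Cxcl5, Cxcl3, Pdk4, Orm1, Orm2 and Lcn2. Their AtT-20 response was read near background (Ccl2 at 4.12 and 4.00, Orm1 at 4.82 and 4.14). For all but Nqo1 and Myc the size of the difference between lines rests on 3134, and it is no measure of an AtT-20 response. Nqo1 changed by 1.05 in AtT-20 and -0.03 in 3134, and Myc by 0.74 and -0.52. Their differences thus rest more on AtT-20 values under the testing level.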

How the results depend on the processing

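The labels give 2 arrays a group and no statement of separate cultures, and a gene near the threshold can pass or miss with 1 array or with the summary over probesets. Folds that start below the testing level are read near background.

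Without run as a block (no replicate block), 9 genes changed at 2 h in AtT-20 (main count 32), 7 list members passed (17), 0 genes differed between 4 h and 2 h (2), 26 genes differed between lines (151), 25 probesets changed (133) and 43 genes had unequal probesets (414). On the deposited scale with the block, 1 gene differed between 4 h and 2 h, 85 between lines, 319 probesets changed and 87 genes were unequal; there the median of all genes for 4 h against 2 h was -0.23. On the deposited scale without the block, which was added after seeing the data, the counts were 0 genes at 2 h, 0 list members, 0 between 4 h and 2 h and 1 between lines. With the mean over probesets they were 70, 30, 5 and 278. Without a filter on low values they were 20 at 2 h, 0 between 4 h and 2 h and 71 between lines, and 79 probesets changed. With the 40th percentile required in AtT-20, 0 genes differed between 4 h and 2 h and 97 between lines. The 60th percentile, at least 1 probeset, and the 7 AtT-20 arrays alone each gave 1 gene between 4 h and 2 h. Leaving out 1 array at a time gave 14 to 30 genes at 2 h, 11 to 13 list members, 0 between 4 h and 2 h and 73 to 111 between lines.

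No named gene that passed changed sign under any alternative run. Over the alternatives, the values of the 32 genes that passed at 2 h stayed past the threshold in 327 cases and missed it in 178. Those of the named genes that had not passed did so in 18 cases and stayed short of it in 1006.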
